A study of Mus musculus with 42 samples.

Results

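A set of 33 genes that mark macrophages and other leukocytes were followed while fibroblasts of mouse embryos were reprogrammed to pluripotency, up to clonal induced pluripotent lines (iPSC). They were chosen by name from known leukocyte biology, and all 33 are present among the 48321 gene names of both count tables. The study holds 42 RNA-seq libraries in 14 groups of 3, counted in 2 tables of 21 libraries that follow the submitters' sequencing batches, and every comparison here stays within a table. The first batch holds the naivex2 lines (nx2), male by label, of the cross of B6; 129S4-Tg(Tet1-mCherry)B37Koh with B6;CBA-Tg(Pou5f1-EGFP)2Mnn/J mice and the genotype Tg(mCherry)/wt; Tg(GFP)/wt. Its groups are the unsorted parental fibroblasts at day 0, cells sorted as mCherry+/GFP- at days 10, 12 and 14, cells sorted as mCherry+/GFP+ at days 12 and 14, and clonal iPSC. The second batch holds the totalx2 lines (tx2), also male, of the cross of B6- Tet1tm1.1Koh with B6;129S4-Pou5f1tm2Jae/J, sorted as mCherry+/GFP- at days 8, 10 and 12 and as mCherry+/GFP+ at days 10 and 12. It also holds male wild-type (wt/wt;GFP/wt) and Tet1 knockout (mut/mut;GFP/wt) iPSC clones from mice with the Tet1tm1Koh allele and the Pou5f1-EGFP transgene. mCherry reports Tet1 and GFP reports Pou5f1, and no gate used a leukocyte marker. All iPSC were grown on feeder cells to passage 6-7 and then depleted of feeders, and how many feeder cells remained is not given in the sources used here. Replicates 1, 2 and 3 are 3 independent lines in nx2 and tx2 and 3 clones in the wild-type and knockout groups, and values are given in that order. For 1 library, tx2 day 12 GFP- replicate 2, the sample title lacks the mCherry mark and the gate was taken from the source name.

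Cultures of mouse embryonic fibroblasts are made from minced embryos, and they carry over other mesenchymal and blood cells, embryonic macrophages among them. The identity of a macrophage is set by the ETS factor PU.1, encoded by Spi1, and its survival by the receptor of the cytokines CSF1 and IL-34, encoded by Csf1r. Downstream of these stand genes for Fc receptors and their ITAM adaptors, complement C1q, leukocyte integrins, scavenger and lectin receptors, and the enzymes of the phagosome.

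Library totals ran from 6540256 to 20783265 counts over 18838 to 21666 detected genes, with 1.753 to 12.18% of counts on mitochondrially encoded genes. Defining genes were read to check the labels. Col1a1, a collagen chain of fibroblasts, had a mean of 8697 CPM in the fibroblasts, where CPM is the usual count relative to a library's total, here scaled by TMM. Pou5f1, the pluripotency factor OCT4, was at 1.14 CPM there and at 309.6 to 938.2 CPM in the other groups. Tet1 was at 54.4, 58.6 and 57.3 CPM in the knockout clones and at 1303, 823 and 874 CPM in the wild-type clones. Reads were counted over whole gene spans with introns, so that several members carry a counting limit. Levels per kb of exon divide these counts by exon length alone, so that intronic reads can raise them more for some genes than for others. The span of Cx3cr1 overlaps Gorasp1, Csrnp1 and Xirp1 on the same strand. Whether reads of these genes were counted in Cx3cr1 was not tested, and this limit holds for each of its values below. Cd68 lies 783 bases downstream of Eif4a1 on the same strand. Eif4a1 was at 689 CPM in the fibroblasts and 1032 CPM at nx2 day 10, levels far above that of Cd68, and whether reads from beyond its end were counted in Cd68 was not tested. Lyz2 has the close copy Lyz1 beside it, which was at 0.0784 CPM in the fibroblasts.

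A few promoters, 3 in all, are shown because their genes stand for the patterns described here. C1qb belongs to the genes that moved together, Lyz2 was the most abundant of those in the fibroblasts per kb of exon, and Cd68 followed another course. Each line gives the 250 bases before the RefSeq transcript start on build GRCm38.p6, on the minus strand and read 5′ to 3′, at chr4:136886201-136886450 for C1qb, chr10:117282273-117282522 for Lyz2 and chr11:69666171-69666420 for Cd68. Capitals mark the motif GAGGAA, the core of the PU.1 site, searched on both strands as GAGGAA or TTCCTC, and shared in part with the sites of other ETS factors.
C1qb: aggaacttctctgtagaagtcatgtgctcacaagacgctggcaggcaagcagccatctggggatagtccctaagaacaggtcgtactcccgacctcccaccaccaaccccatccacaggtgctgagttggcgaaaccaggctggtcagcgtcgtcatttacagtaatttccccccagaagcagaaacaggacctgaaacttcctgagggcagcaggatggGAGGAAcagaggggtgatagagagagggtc
Lyz2: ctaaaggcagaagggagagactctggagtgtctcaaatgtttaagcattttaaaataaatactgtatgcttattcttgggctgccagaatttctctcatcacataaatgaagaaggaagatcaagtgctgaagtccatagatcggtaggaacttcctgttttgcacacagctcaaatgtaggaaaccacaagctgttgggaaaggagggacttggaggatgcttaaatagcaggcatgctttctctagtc
Cd68: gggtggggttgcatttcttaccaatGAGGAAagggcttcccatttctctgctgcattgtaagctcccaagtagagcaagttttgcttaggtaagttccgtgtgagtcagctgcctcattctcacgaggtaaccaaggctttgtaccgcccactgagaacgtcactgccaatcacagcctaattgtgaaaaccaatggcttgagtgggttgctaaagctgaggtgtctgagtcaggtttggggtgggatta
RefSeq held promoters for 24 of the 33 members, and 14 of these 24 (58.3%) had the motif in at least 1 window, against 6986 of 27025 genes (25.9%) in all. C1qb and Cd68 each hold it once and Lyz2 not at all in this window. The members and the motif were chosen with results of these data known, and a match is a description of letters and not of a bound site.

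Summed over 31 of the 33 members, levels were high in the fibroblasts and lower in every later nx2 group. In tx2 they were highest in GFP+ cells of day 10. As a description, the CPM of 31 members were summed, which not every member follows, without Laptm5 and Cd68, which were set aside after their values were seen because they followed another course than the rest. The 3 fibroblast libraries held 162, 199.9 and 133 CPM, or 165 ± 33.5 (SD, n = 3). The nx2 cells at day 10 held 13.2, 13.4 and 12.4 CPM, and the day 12 groups had means of 10.5 (GFP-) and 11.6 CPM (GFP+). At day 14 the sums were 28.8 ± 2.70 CPM in GFP- and 20.3 ± 1.91 CPM in GFP+ cells, and 32.1 CPM in nx2 iPSC. No nx2 library after the fibroblasts came above 34.5 CPM. In tx2 the day 8 cells held 93.9, 96.8 and 44.65 CPM, the day 10 GFP- cells 15.3, 55.8 and 37.3 CPM, and the day 10 GFP+ cells 110.4, 338 and 347 CPM. At tx2 day 12 the sums were 58.6, 82.9 and 60.7 CPM in GFP- and 72.1, 147.5 and 91.3 CPM in GFP+ cells. Wild-type iPSC held 79.6, 74.3 and 70.05 CPM and knockout iPSC 47.4, 55.4 and 50.8 CPM. The batches were scaled apart, and levels across them are given side by side with no test. In bulk samples like these, fewer cells of a type and less RNA per cell cannot be told apart. In tx2, line 1 was lowest at day 10 under both gates, and line 3 was lowest at day 8. With Laptm5 and Cd68 included, the 33 members summed to a mean of 180 CPM in the fibroblasts. In later nx2 groups that mean ran from 86.95 CPM (day 14 GFP-) to 202.5 CPM (day 12 GFP+), with 180.5 CPM in iPSC. The lower level in every later nx2 group thus holds for the 31 alone. In tx2 the sum of all 33 was also highest in day 10 GFP+ cells, at 439.8 CPM.

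**Figure D1:**
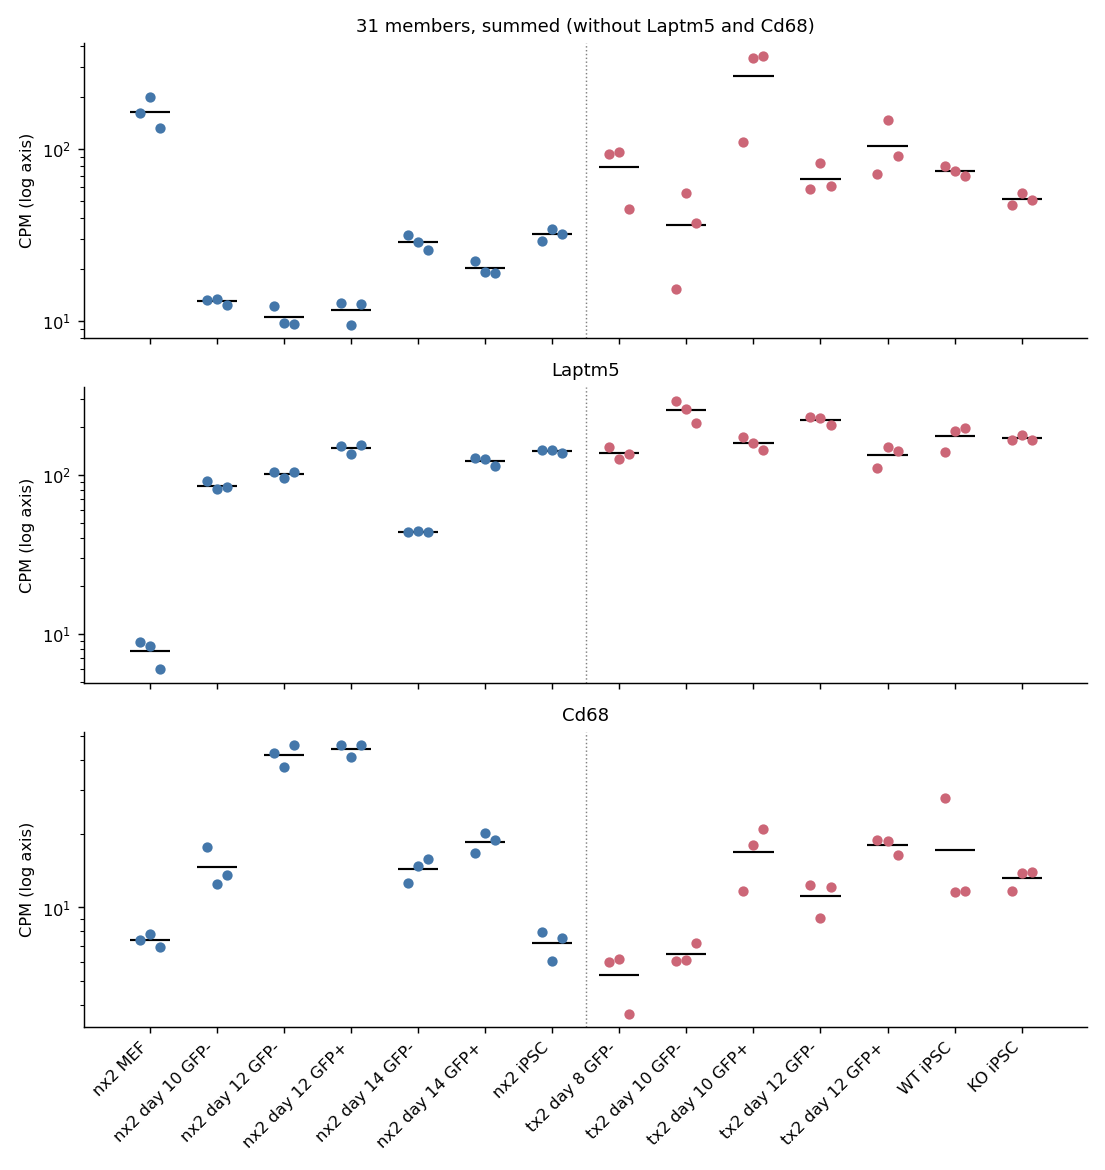
Level in each library, in CPM on a log axis, of the sum of 31 members, of Laptm5 and of Cd68, by group, with nx2 in blue, batch 2 in red, points for libraries and bars for group means. The sum is high in the fibroblasts and highest in 2 of the 3 tx2 day 10 GFP+ libraries, at 338 and 347 CPM, while Laptm5 is lowest in the fibroblasts.

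From the nx2 fibroblasts to the sorted cells of day 10, nearly all tested members fell. Of the 28 members that passed the filter on low counts, 26 were called lower and 2 higher (adjusted p under 0.05, edgeR quasi-likelihood test, Benjamini-Hochberg over all genes). In this comparison 37.6% of all 16132 genes tested were called lower and 38.8% higher. The median log2 fold change was -3.92 over the tested members, or -3.81 with Tyrobp at its bound, and 0.06 over all genes. The filter took in every nx2 group, and the fit on day 14 GFP- and day 10 cells alone tested 9 members. Members kept only through their fibroblast counts could only be lower at day 10. The count of 26 and the median are thus in part set by the filter. Cd52, Aif1, Cd163, Clec4n and Pf4 were too low to test, at 0.02 to 1.02 CPM in the fibroblasts. The comparison sets a sorted population against an unsorted culture, and the gate and the days of reprogramming cannot be told apart.

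The 2 regulators were among those that fell. Csf1r, the receptor of CSF1 and IL-34 (chr18:61105572-61132149, mm10), was at 18.9, 22.9 and 13.7 CPM in the fibroblasts and at 0.337, 0.132 and 0.142 CPM at day 10. The libraries of the 2 groups did not overlap, and the log2 fold change was -6.50 ± 0.41 (SE, adjusted p = 5.27e-12). Spi1 was at 3.05, 3.20 and 2.54 CPM and then at 0.505, 0.330 and 0.926 CPM, a log2 fold change of -2.30 ± 0.35 (adjusted p = 5.01e-06). At day 10 Spi1 was at 20.03% of its mean fibroblast level and Csf1r at 1.10%.

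Among the receptors for antibody and their partners, Tyrobp, the adaptor DAP12 (chr7:30413760-30417585), was at 3.87, 4.04 and 3.02 CPM in the fibroblasts and had 0 counts in every day 10 library. It was at least 16.4-fold lower, at a floor of 3 counts per library (0.221 CPM). Fcer1g, the common gamma chain of Fc receptors, went from 2.96 to 0.542 CPM on average (log2 fold change -2.39 ± 0.35, adjusted p = 2.24e-06). The receptors Fcgr1 and Fcgr3 fell by 4.26 and 1.69 on the log2 scale. The 3 subunits of C1q, the first component of the classical complement pathway, lie side by side on chromosome 4, with C1qb at chr4:136880129-136886187. C1qb was at 6.98, 9.51 and 5.56 CPM in the fibroblasts and at 0, 0.132 and 0.142 CPM at day 10 (log2 fold change -6.12 ± 0.53, adjusted p = 9.32e-09). C1qc was at 7.28, 6.99 and 5.32 CPM and then at 0, 0.264 and 0 CPM (-5.96 ± 0.61, adjusted p = 9.79e-08). The day 10 values of C1q rest on 0 to 4 counts per library, and the fold changes are as uncertain as those counts.

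Among the genes shared by most leukocytes, Ptprc, the phosphatase CD45, went from 3.50 to 0.0518 CPM, and the tetraspanin gene Cd53 from 2.06 to 0.0993 CPM. Lcp1, the actin bundler L-plastin, was at 14.7, 21.3 and 12.0 CPM in the fibroblasts and at 2.44, 1.85 and 0.926 CPM at day 10 (log2 fold change -3.21 ± 0.38, adjusted p = 1.45e-07). Coro1a, an actin regulator, fell by 2.67 on the log2 scale. Both integrin chains were lower. Itgam, the CD11b chain, was at 5.22, 6.31 and 3.43 CPM and then at 0, 0.0660 and 0 CPM, with 1 count in all at day 10. Itgb2, the shared CD18 chain, was at 2.64, 3.12 and 2.07 CPM and then at 0.337, 0.264 and 0.641 CPM (log2 fold change -2.62 ± 0.44).

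All 7 tested surface receptors fell. Cx3cr1, the fractalkine receptor, was at 11.4, 11.6 and 10.6 CPM in the fibroblasts and at 2.53, 2.64 and 2.92 CPM at day 10 (log2 fold change -2.05 ± 0.22, adjusted p = 3.63e-08). Adgre1, the macrophage antigen F4/80, was at 8.10, 10.4 and 6.38 CPM and then at 0.252, 0.0660 and 0.142 CPM (-5.73 ± 0.44, adjusted p = 1.84e-09). Mrc1, the mannose receptor, fell by 2.11 on the log2 scale, and Cd14, Trem2, Cd84 and Ms4a7 by 2.19 to 5.85. Among the genes of the phagosome, Lyz2, the lysozyme of myeloid cells (chr10:117277334-117282274), was at 28.6, 35.5 and 23.2 CPM and then at 1.35, 0.990 and 0.641 CPM (log2 fold change -4.88 ± 0.45, adjusted p = 3.88e-09). Ctss, the protease cathepsin S, fell by 6.37 on the log2 scale, Mpeg1, the pore-former perforin-2, by 3.14, and Cybb, the catalytic chain of the NADPH oxidase, by 1.17.

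Laptm5 and Cd68 went the other way. Laptm5, a lysosomal membrane protein of blood cells (chr4:130913125-130936141), was at 8.92, 8.34 and 5.97 CPM in the fibroblasts and at 90.6, 81.7 and 83.8 CPM at day 10. Its log2 fold change was 3.47 ± 0.11 (adjusted p = 6.76e-17), and its span overlaps no other gene, with the nearest one upstream on its strand, Sdc3, 86806 bases away. Cd68, a lysosomal glycoprotein used as a macrophage marker (chr11:69664213-69666153), was at 7.39, 7.83 and 6.92 CPM and then at 17.7, 12.5 and 13.5 CPM (0.98 ± 0.14, adjusted p = 2.62e-06). Per kb of exon, Lyz2 had the highest mean of the 33 in the fibroblasts, at 22.1 CPM per kb, and Laptm5 at day 10, at 22.5 CPM per kb. Intronic reads enter both values. Of the 32 members with at least 3 fibroblast counts, 18 were under 5% of their fibroblast level at day 10, 6 were between 5 and 20%, 6 between 20 and 100%, and these 2 above it. Scaling by library totals moved the median of all genes in this comparison to 0.34 and reversed no member.

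The other myeloid genes, a list of 70 signalling, chemokine, oxidase and antigen-presentation genes, showed both directions. Of its 47 tested genes 35 were called lower and 7 higher at day 10. Runx1, a transcription factor of blood that fibroblasts also express, went from 104 ± 5.09 to 6.33 ± 0.800 CPM, and Sirpa, the CD47 receptor, from 52.3 ± 8.37 to 6.33 ± 1.31 CPM. Inpp5d, the phosphatase SHIP1, rose from 3.21 ± 0.784 to 96.8 ± 9.43 CPM (log2 fold change 4.94 ± 0.17, adjusted p = 3.21e-16). Inpp5d is known to have a transcript of its own in pluripotent cells. Of the lists for other blood cells, the 12 genes of T and NK cells summed to 2.07 CPM in the fibroblasts and 23.5 CPM at day 10, of which Lck, a tyrosine kinase of T cells, made up 21.6 CPM. The summed mast cell genes stayed at or under 0.928 CPM and the neutrophil genes at or under 3.61 CPM in every group mean. The 8 megakaryocyte and platelet genes summed to 11 CPM in the fibroblasts and 1.19 CPM at day 10, and the 12 fibroblast genes to 17840 and 1016 CPM. The part of these other cell types in the members' levels was not tested.

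**Figure D2:**
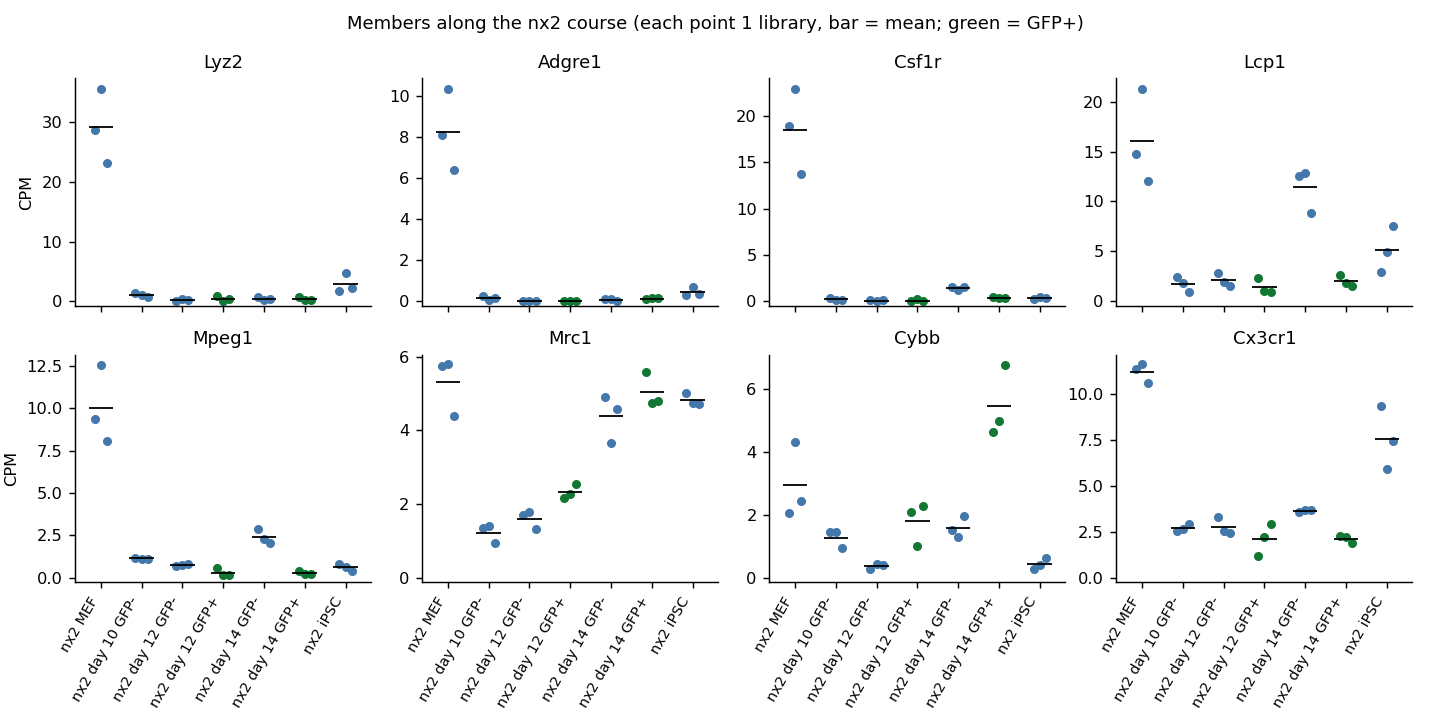
Levels of 8 members in the 7 nx2 groups, in CPM, with a point for each library, a bar at each group mean and GFP+ groups in green. Lyz2, Adgre1 and Csf1r are far below the fibroblasts in all later groups, with Lyz2 at up to 4.79 CPM in iPSC. Lcp1 is higher again in day 14 GFP- cells, Mrc1 in both day 14 groups and iPSC, Cybb in day 14 GFP+ cells and Cx3cr1 in iPSC.

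Between day 10 and day 14, Lcp1, Csf1r, Mrc1 and Mpeg1 rose in the nx2 cells that stayed GFP-, and Laptm5 and Ms4a7 fell. These are 6 of the 28 tested, where 20.3% of all genes rose and 16.5% fell. The fit on these 2 groups alone, in which members at or near 0 in both are not tested, called 5 of 9 members. Lcp1 was at 12.6, 12.9 and 8.85 CPM at day 14, above every day 10 library (log2 fold change 2.73 ± 0.38, adjusted p = 1.36e-05). Csf1r was at 1.56, 1.203 and 1.53 CPM (2.81 ± 0.49, adjusted p = 0.000156), Mrc1 at 4.91, 3.66 and 4.58 CPM (1.83 ± 0.21, adjusted p = 1.33e-06) and Mpeg1 at 2.89, 2.27 and 2.02 CPM (1.09 ± 0.30, adjusted p = 0.00722). Laptm5 fell to 43.9, 44.3 and 43.4 CPM (-0.96 ± 0.09, adjusted p = 1.50e-07). Ms4a7, a membrane protein of macrophages, went from 6 counts in all to 0 counts, and its call (adjusted p = 0.032) was lost without replicate 1 or 2 of day 10 or any replicate of day 14.

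Other members were at or near 0 at that time. In the day 14 GFP- libraries Tyrobp had 0 counts, C1qa and C1qb 1 count each, C1qc 2 counts, Ptprc 1 count and Adgre1 4 counts, over all 3 libraries, while Lcp1 had 641 counts in all and Csf1r 25 to 27 counts in each library. Lcp1 made up 40.2% (95% Wilson interval 37.9 to 42.7, counting error only) of the counts of the 31 members there and Lyz2 1.44%. In the fibroblasts Lyz2 held 17.4 to 17.8% by library and Lcp1 9.01 to 10.7%. Of 12 fibroblast genes 9 rose over the same days, with sums of 1016 ± 260 and 3898 ± 1056 CPM, and the part of that change in the levels of Lcp1, Csf1r, Mrc1 and Mpeg1 was not tested.

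Between the GFP gates of nx2, Laptm5 and Cybb were higher in GFP+ cells at both days. Cd68 had its highest nx2 levels at day 12 under both gates, at 42.5, 37.3 and 45.8 CPM in GFP- cells, and was back at a mean of 14.3 CPM in day 14 GFP- cells. At day 12, 2 of 28 tested members were higher in GFP+ cells and none lower, where 9.93% of all genes were higher and 6.69% lower. The filter on low counts took in every nx2 group, fibroblasts included, and the fit on these 2 groups alone tested 6 members and called 2. With the line as a block the count was 4, with Fcgr3 higher and Mpeg1 lower as the additions. Laptm5 was at 152, 135 and 153 CPM in GFP+ and 104, 95.3 and 104 CPM in GFP- cells, 1.42 to 1.47 times as high in each line (log2 fold change 0.53 ± 0.09, adjusted p = 0.000225). Cybb (chrX:9435252-9487771) was at 2.09, 0.998 and 2.28 CPM against 0.283, 0.443 and 0.396 CPM, and no GFP+ library was as low as a GFP- library (2.18 ± 0.43, adjusted p = 0.00112).

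At day 14 the GFP+ cells had 3 higher and 4 lower members, against 14.4% and 16.9% of all genes, and the fit on the 2 groups alone called 7 of the 10 members it tested. Laptm5 was at 127, 125 and 113 CPM against 43.9, 44.3 and 43.4 CPM in GFP- cells, and 2.61 to 2.91 times as high in each line (log2 fold change 1.47 ± 0.09, adjusted p = 4.39e-10). The difference of the GFP effects, day 14 minus day 12, was tested after seeing the data, and Laptm5 was the 1 member called (0.94 ± 0.13, adjusted p = 0.000335), where 0.688% of all genes were called higher and 0.855% lower. Cybb was at 4.61, 4.96 and 6.75 CPM against 1.502, 1.296 and 1.95 CPM (1.79 ± 0.31, adjusted p = 0.000158). Cd68 was higher by 0.37 ± 0.13, a call that was lost without replicate 1 or 2 of the GFP- or replicate 2 or 3 of the GFP+ cells. The 4 lower members included 3 of those that had risen in the GFP- cells. Mpeg1 was at 0.392, 0.213 and 0.236 CPM in GFP+ cells (-3.10 ± 0.39, adjusted p = 4.40e-06), Lcp1 at 2.65, 1.84 and 1.57 CPM (-2.52 ± 0.37, adjusted p = 3.26e-05) and Csf1r at 0.490, 0.354 and 0.314 CPM (-1.88 ± 0.44, adjusted p = 0.00251). Cx3cr1 was lower by 0.79 ± 0.24 (adjusted p = 0.0163), which was lost without GFP+ replicate 3. Cybb held 27.3% (24.2 to 30.6) and Mrc1 24.9% of the counts of the 31 members in day 14 GFP+ cells.

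The nx2 iPSC differed from the day 14 GFP+ cells in 14 of the 28 tested members, 12 higher and 2 lower, where 24.3% of all genes were higher and 22.5% lower. Cx3cr1 was at 9.33, 5.93 and 7.45 CPM, above every day 14 GFP+ library (log2 fold change 1.84 ± 0.23, adjusted p = 2.35e-06), and held 23.1% of the counts of the 31 members. Lyz2 was at 1.77, 4.79 and 2.30 CPM against 0.686, 0.283 and 0.236 CPM (2.95 ± 0.58, adjusted p = 0.000366). Spi1 was at 1.56, 2.28 and 1.93 CPM against 0.686, 0.779 and 0.393 CPM (1.63 ± 0.37, adjusted p = 0.00111). Lcp1 was higher by 1.38, and Fcer1g, C1qb, Cd53, Coro1a, Itgam, Adgre1, Cd84 and Ms4a7 were called higher at means of 0.163 to 1.83 CPM. Cybb fell to 0.283, 0.399 and 0.621 CPM (-3.61 ± 0.37, adjusted p = 1.43e-07), and Cd68 to 7.92, 6.05 and 7.51 CPM from 16.7, 20.1 and 18.9 CPM (-1.38 ± 0.14, adjusted p = 1.36e-07). With the line as a block Laptm5 was also called higher. The count of 14 was 8 without replicate 2 and 7 without replicate 3 of the day 14 GFP+ cells, and 7 without replicate 2 of the iPSC, and the genes lost were among the 8 just listed from Fcer1g to Ms4a7. Against the fibroblasts, 24 of 28 members were lower in nx2 iPSC and Laptm5 alone was higher, at 143, 143 and 138 CPM (4.19 ± 0.11, adjusted p = 3.86e-18), with 39.4% of all genes lower and 37.9% higher. The 3 members that did not pass were Spi1, Mrc1 and Cd68, at -0.60 ± 0.30, -0.14 ± 0.18 and -0.04 ± 0.15. As at day 10, members kept by the filter only through their fibroblast counts could only be lower here.

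In the tx2 lines the largest difference was between GFP+ and GFP- cells of day 10. Of 29 tested members 25 were higher in GFP+ cells and 1 lower, where 13% of all 15197 genes tested were higher and 9.36% lower. The median log2 fold change was 3.05 over the tested members and 0.04 over all genes. The filter took in every batch 2 group, and the fit on these 2 groups alone tested 25 members and called 20 higher and 1 lower. Members near 0 in GFP- cells that passed the filter through groups where they are high could hardly be lower in GFP+ cells. The count of 25 higher and the median are thus in part set by the filter. Within lines, the sum of the 31 members was 7.21, 6.06 and 9.32 times as high in GFP+ cells. Fcgr1, Cd52, Aif1 and Cd163 were too low to test, and Cd163, the haemoglobin scavenger receptor, had 0 counts in every tx2 group.

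**Figure D3:**
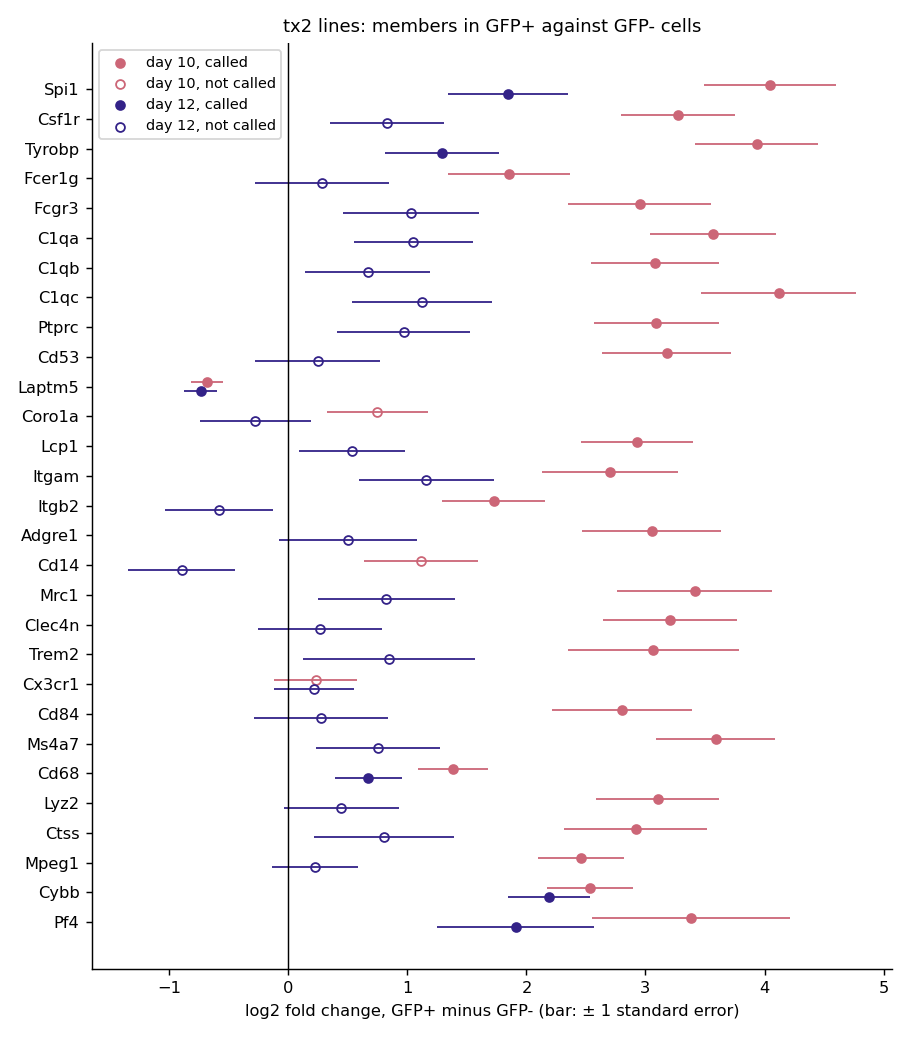
Log2 fold change of GFP+ over GFP- tx2 cells, with its standard error, for the 29 tested members at day 10 and day 12, filled where called. At day 10 all but Laptm5 lie above 0 and 25 are called higher, while at day 12 Spi1, Tyrobp, Cd68, Cybb and Pf4 are called higher.

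Both regulators were higher in the day 10 GFP+ cells. Spi1 was at 1.60, 3.85 and 5.03 CPM against 0.0819, 0.354 and 0.168 CPM in GFP- cells, a log2 fold change of 4.05 ± 0.55 (adjusted p = 2.07e-05). Csf1r was at 3.81, 10.6 and 11.5 CPM against 0.491, 1.42 and 0.757 CPM (3.27 ± 0.48, adjusted p = 4.44e-05). In each case the lowest GFP+ library, that of line 1, was above the highest GFP- library. Tyrobp was at 2.70, 5.89 and 3.55 CPM against 0.0819, 0.443 and 0.252 CPM (3.93 ± 0.52, adjusted p = 1.25e-05), and Fcgr3 at 1.35, 5.29 and 4.14 CPM against 0.164, 0.708 and 0.505 CPM (2.95 ± 0.60, adjusted p = 0.00113). Fcer1g was higher by 1.85 ± 0.51 (adjusted p = 0.0121), a call lost without GFP+ replicate 2.

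C1qc was at 3.07, 14.1 and 11.7 CPM in GFP+ cells against 0.0819, 1.24 and 0.337 CPM (log2 fold change 4.12 ± 0.65, adjusted p = 0.000104). C1qa was at 4.92, 11.5 and 11.2 CPM against 0.246, 1.42 and 0.673 CPM (3.56 ± 0.53, adjusted p = 5.08e-05), and C1qb was higher by 3.08 ± 0.54. Per subunit the mean in GFP+ cells was 8.27 to 9.61 CPM. Of the genes shared by leukocytes, Lcp1 was at 7.99, 22.2 and 27.1 CPM against 0.573, 4.51 and 2.44 CPM (2.93 ± 0.47, adjusted p = 0.000128), Ptprc was higher by 3.09 ± 0.52 and Cd53 by 3.18 ± 0.54. Coro1a did not pass (0.75 ± 0.42, adjusted p = 0.231). Itgam was at 1.60, 6.85 and 7.40 CPM against 0.164, 1.24 and 1.01 CPM (2.70 ± 0.57, adjusted p = 0.00157). Itgb2 was at 2.34, 7.69 and 8.73 CPM against 0.819, 2.12 and 2.69 CPM, with line 1 of the GFP+ cells inside the GFP- range (1.72 ± 0.43, adjusted p = 0.00637).

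Among the surface receptors Adgre1 was at 7.005, 23.9 and 26.3 CPM in GFP+ cells against 0.246, 3.81 and 2.86 CPM (log2 fold change 3.05 ± 0.58, adjusted p = 0.000684). Mrc1 was at 7.50, 27.5 and 22.2 CPM against 0.409, 4.07 and 0.926 CPM (3.41 ± 0.65, adjusted p = 0.000735). Clec4n, the lectin Dectin-2, Trem2, Cd84 and Ms4a7 were higher by 2.80 to 3.59. Cd14, the lipopolysaccharide co-receptor, was at 0.983, 2.64 and 1.92 CPM against 0.737, 0.885 and 0.926 CPM and did not pass (adjusted p = 0.106). Cx3cr1 was at 0.983, 2.40 and 2.66 CPM against 1.56, 2.39 and 1.18 CPM, where the ranges of the gates overlapped (0.23 ± 0.35, adjusted p = 0.714).

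Lyz2 was the most abundant member in day 10 GFP+ cells per kb of exon, at 59.8 CPM per kb against 41.7 for Laptm5 and 13.4 for Cd68. Intronic reads enter these values, and their part in the ranking was not tested. Lyz2 was at 29.5, 99.7 and 107 CPM against 3.28, 15.2 and 9.09 CPM, and 9.01, 6.55 and 11.8 times as high within lines (log2 fold change 3.10 ± 0.52, adjusted p = 0.000244). Cd68 was at 11.7, 18.03 and 20.9 CPM against 6.06, 6.11 and 7.15 CPM (1.38 ± 0.29, adjusted p = 0.00170). Mpeg1 was higher by 2.46 ± 0.36, Cybb by 2.53 ± 0.36 and Ctss by 2.92 ± 0.60. Pf4, the chemokine platelet factor 4, which fetal macrophages also make, was at 0.369, 1.32 and 1.33 CPM against 0, 0.266 and 0 CPM (3.38 ± 0.83, adjusted p = 0.00547). Laptm5 was the 1 member that was lower in GFP+ cells, at 173, 158 and 143 CPM against 292, 259 and 210 CPM (-0.68 ± 0.14, adjusted p = 0.00101), and the gates did not overlap.

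Other genes of the myeloid list and of other cell types were read beside these. Of 49 tested genes of the other myeloid list 28 were higher in day 10 GFP+ cells and 1, Il34, lower. Inpp5d was at 86.3 ± 14.1 against 19.7 ± 2.27 CPM, Cd37, a leukocyte tetraspanin, at 2.56 ± 0.402 against 0.172 ± 0.0919 CPM, and Syk, the kinase downstream of ITAM adaptors, at 20.02 ± 2.23 against 10.5 ± 1.43 CPM. All 10 pluripotency genes were higher, the sums being 2517 ± 79.4 and 788 ± 127 CPM. Of 12 fibroblast genes 1 was higher, with sums of 4107 to 11200 CPM in GFP+ and 2275 to 7387 CPM in GFP- libraries. Of the tested genes of T and NK cells (3), neutrophils (1), megakaryocytes (1) and dendritic cells (1) none was called, and of the B cell genes 1 of 3 was higher. The 1 tested erythroid gene was higher, and of 6 tested endothelial genes 2 were higher and 2 lower, with list sums of 2.25 against 0.648 CPM and 87.4 against 140.4 CPM. The T and NK list summed to 18.3 to 22.5 CPM in GFP+ and 14.2 to 18.3 CPM in GFP- libraries, with Lck at 18.5 and 15.1 CPM on average. Both the sum of the 31 members and the fibroblast sum were lowest in line 1 under each gate. The part of these cells in the members' levels was not tested.

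By day 12 the difference between the tx2 gates was smaller. Of the 29 tested members 5 were higher in GFP+ cells and 1 lower, where 31.2% of all genes were higher and 30.4% lower. Without GFP- replicate 1 or GFP+ replicate 2 the count of 6 was 3, and Tyrobp, Cd68 and Pf4 were those lost. With the line as a block Itgam was also called higher. Cybb was at 5.59, 8.94 and 5.63 CPM against 1.82, 1.53 and 0.839 CPM, and 3.08 to 6.71 times as high within lines (log2 fold change 2.19 ± 0.35, adjusted p = 2.37e-05). Spi1 was at 1.007, 1.99 and 1.95 CPM against 0.573, 0.235 and 0.420 CPM (1.85 ± 0.50, adjusted p = 0.00372). Laptm5 was at 110, 148 and 141 CPM against 231, 227 and 206 CPM (-0.74 ± 0.14, adjusted p = 0.000124). Tyrobp was at 1.19, 2.13 and 1.44 CPM against 0.573, 0.941 and 0.420 CPM, Pf4 at 1.19, 1.70 and 0.361 CPM against 0.239, 0.235 and 0.315 CPM, and Cd68 at 18.8, 18.7 and 16.4 CPM against 12.3, 9.06 and 12.2 CPM. Lyz2 was at 17.5, 39.3 and 24.9 CPM against 17.3, 24.5 and 17.9 CPM, which overlapped and was not called. The sum of the 31 members was 1.23, 1.78 and 1.503 times as high within lines. The fibroblast genes moved against the GFP gate here, with 12 of 12 lower in GFP+ cells. Of 49 other myeloid genes 11 were higher and 17 lower, with Inpp5d at 134 ± 8.46 against 18.98 ± 2.41 CPM, Il34, a ligand of Csf1r, at 9.97 ± 1.53 against 61.0 ± 7.08 CPM and Syk at 37.0 ± 1.70 against 11.2 ± 1.59 CPM.

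The change between the days was tested directly, as the difference of the 2 GFP effects, a contrast added after seeing the data. It was lower at day 12 than at day 10 for 17 of the 29 tested members and higher for none, where 16.7% of all genes were lower and 10.5% higher. For Lyz2 the difference was -2.66 ± 0.70 (adjusted p = 0.00992), for Csf1r -2.44 ± 0.68 (adjusted p = 0.0127) and for Mpeg1 -2.23 ± 0.51 (adjusted p = 0.00356). Cybb (-0.34 ± 0.50, adjusted p = 0.662), Laptm5 (-0.05 ± 0.19) and Cd68 (-0.71 ± 0.40) did not pass. The count of 17 was 11 without day 10 GFP- replicate 1, 10 and 11 without day 10 GFP+ replicates 2 and 3, and 11 without day 12 GFP+ replicate 1.

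Over time in tx2 cells that stayed GFP-, day 12 differed from day 8 in 4 of 29 members, 2 in each direction, where 17.1% of all genes rose and 14.5% fell. Laptm5 rose from 149.5, 125.5 and 135 to 231, 227 and 206 CPM (log2 fold change 0.70 ± 0.14, adjusted p = 0.000751). Cd68 rose from 6.01, 6.16 and 3.69 to 12.3, 9.06 and 12.2 CPM (1.09 ± 0.30, adjusted p = 0.00982). Mpeg1 fell from 9.21, 12.5 and 7.68 to 4.16, 5.88 and 3.36 CPM (-1.15 ± 0.35, adjusted p = 0.0182), and Tyrobp from 1.79, 2.26 and 0.819 to 0.573, 0.941 and 0.420 CPM, where the days overlapped (-1.36 ± 0.48, adjusted p = 0.0364). The 2 falls were lost without day 12 replicate 1 or 3 or day 8 replicate 2. Of 49 other myeloid genes 16 rose and 0 fell.

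Cybb was lower and Cx3cr1 higher in wild-type iPSC than in the last sorted tx2 cells. Wild-type iPSC differed from tx2 day 12 GFP+ cells, which come from other lines with other reporters, in 8 of 29 members, 2 higher and 6 lower, where 25% of all genes were higher and 26% lower. Cx3cr1 was at 9.74, 7.74 and 6.28 CPM against 1.65, 1.99 and 2.45 CPM (log2 fold change 1.93 ± 0.31, adjusted p = 3.905e-05), and Cybb at 1.73, 1.87 and 1.03 CPM against 5.59, 8.94 and 5.63 CPM (-2.14 ± 0.35, adjusted p = 5.55e-05). Clec4n was at 0.267, 0 and 0.171 CPM against 0.824, 2.41 and 1.15 CPM (-3.26 ± 0.73, adjusted p = 0.00114). Csf1r, C1qa, Adgre1 and Mrc1 were lower by 1.33 to 1.53 and Laptm5 higher by 0.39, with calls that depended on single libraries. The count of 8 was 4 or 5 without any 1 of the wild-type replicates and 4 without day 12 GFP+ replicate 2. Wild-type replicate 1 also had the largest mitochondrial share, 12.18%, and a Cd68 level of 28.0 CPM against 11.6 CPM in each of the others.

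Between Tet1 knockout and wild-type iPSC no member was called by edgeR's test, where 4.78% of all genes were called higher and 5.87% lower. At an unadjusted p under 0.05 there were 3 members, Cx3cr1, Pf4 and Cybb, and DESeq2 called 1, Cx3cr1, as did the block by clone number. Clone numbers are only names, so that this block pairs clones with no known relation. Cx3cr1 was at 5.17, 3.56 and 3.94 CPM in knockout and 9.74, 7.74 and 6.28 CPM in wild-type clones, without overlap (log2 fold change -0.90 ± 0.29, adjusted p = 0.0501). The fit without wild-type replicate 3 also called it. Lyz2 was at 12.2, 14.8 and 12.5 CPM against 25.5, 20.4 and 21.3 CPM, without overlap but not called (-0.75 ± 0.50, adjusted p = 0.358). The median over the 29 tested members was -0.46 and over all genes -0.04. Of 49 other myeloid genes 3 were higher and 4 lower, and the summed fibroblast genes were at 1843 ± 379 and 1469 ± 197 CPM.

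**Figure D4:**
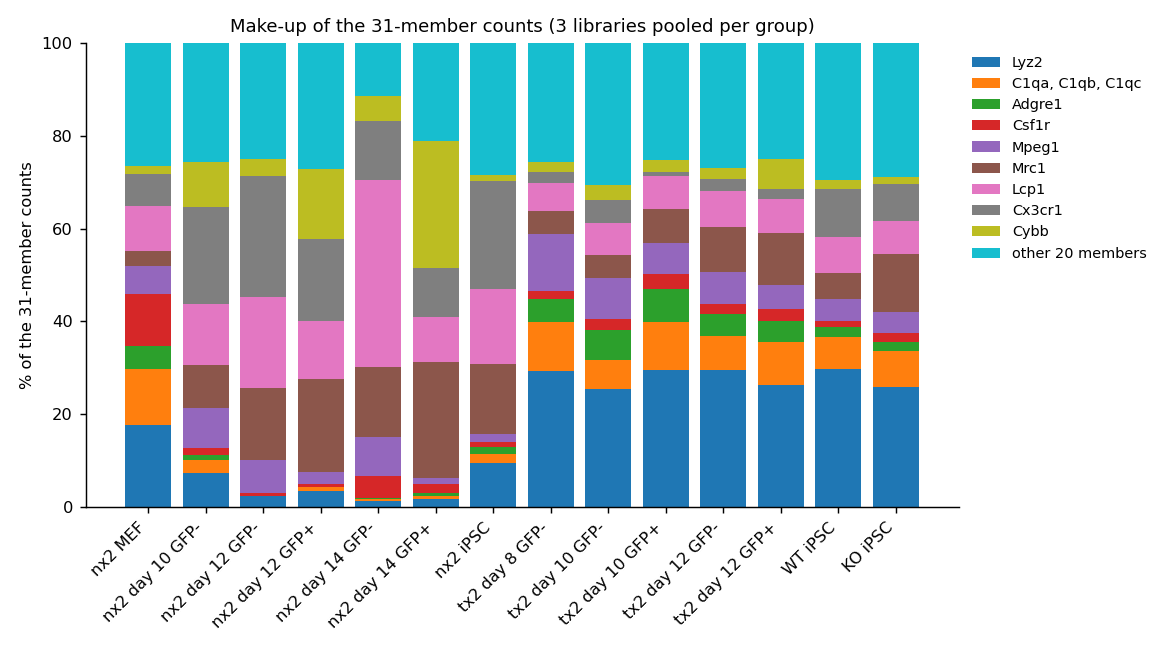
Share of the counts of the 31 members that 11 named members take in each group (C1qa, C1qb and C1qc as 1 block), in percent of the summed counts of 3 libraries, with the other 20 members together. Lyz2 is the largest single share in batch 2, Lcp1 in nx2 day 14 GFP- cells, Cybb in nx2 day 14 GFP+ cells and Cx3cr1 in nx2 iPSC.

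The makeup of the members' counts is given as shares of counts, not corrected for gene length, with the batches side by side and no test between them. Lyz2 held 21.4 to 32.1% of the counts of the 31 members in each of the 15 tx2 sorted libraries, while their sum ranged from 15.3 to 347 CPM. It held 24.6 to 32% in the 6 wild-type and knockout libraries, 0 to 10.2% in the 15 nx2 sorted libraries and 6.02 to 13.9% in the nx2 iPSC. Csf1r held 10.3 to 11.7% in the fibroblasts and 1.27 to 3.67% in the tx2 sorted libraries. In the latter Mpeg1 held 4.43 to 17.2%, C1qb 1.38 to 3.83%, C1qc 0.535 to 4.24%, Mrc1 2.48 to 13.8%, Cybb 1.38 to 7.75%, Cd14 0.554 to 4.81% and Cx3cr1 0.712 to 10.2%, so that the makeup also varied between tx2 libraries. The fibroblasts of the tx2 lines are not analysed here, so that the level from which the tx2 cells started is not known. In the 15 nx2 sorted libraries Cx3cr1 held 9.04 to 27.1%, Lcp1 6.94 to 44.8%, Mrc1 7.47 to 25.3% and Cybb 2.33 to 35.7%, while Tyrobp held at most 0.873% and Ptprc at most 0.637%.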

How the data were processed

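RNA of 42 libraries was measured by stranded poly(A) RNA-seq. For every gene name the tables hold unnormalized read counts. The authors obtained these counts from featureCounts 1.5.3, strand setting 2, over whole gene spans, per the file headers, so that intronic reads enter. Alignment with HISAT2 2.1.0 to mm10 and the use of DESeq2 1.18.1 are given in the submitters' processing notes. The test was the quasi-likelihood F test of edgeR 4.0.16 in R 4.3.3, robust, after filterByExpr and TMM scaling, whose factors ran from 0.782 to 1.07. Each fit held all 21 libraries of a batch, so that its groups share 1 estimate of the spread. A gene was called at a Benjamini-Hochberg adjusted p under 0.05 over all genes tested, in 11 comparisons and, added after seeing the data, 2 differences of GFP effects. Those that share a group share its libraries: nx2 day 10, day 14 GFP-, day 14 GFP+, fibroblast and iPSC libraries and tx2 day 12 and wild-type libraries each enter more than 1 comparison. The 2 differences of GFP effects use the same libraries as the GFP comparisons, those of nx2 day 12 and tx2 day 10 among them. The procedure was tested on simulated data. Alternatives were DESeq2 1.42.0, other scalings and filters, fits on the compared groups alone, a block for the line, and leaving out libraries. Figures and tables were made in Python 3.11.15.

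The members and all gene lists were chosen with earlier results of these data known. Members are described by role, with values in each library for the 2 most abundant of each role or for all called where at most 5 were, and of other lists for up to 3 called genes of smallest p. Depth was 6540256 to 20783265 counts per library, and intervals and floors of 3 counts cover counting error only. Lines pair the sorted groups by design: deviations of same-numbered libraries from their group means correlated at 0.0135 to 0.758 over 30 tx2 pairs of libraries and at -0.263 to 0.590 over 63 nx2 pairs. The main fit held the group alone, so that the standard errors and p-values given leave out this pairing. Only the fit with the line as a block takes it in. Clone numbers of the wild-type and knockout iPSC are only names (-0.216 to 0.0688 over 3 pairs). Promoters came from RefSeq on GRCm38.p6, and 9 members are named without one.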

Additional observations from a re-analysis of the deposited data

Results flagged for a closer look

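In tx2, the GFP effect on 17 members was smaller at day 12 than at day 10 by a test of the difference itself (edgeR, adjusted p under 0.05). On the log2 scale the difference, day 12 minus day 10, was -2.20 for Spi1 and -2.44 for Csf1r, -2.64 for Tyrobp, and -2.51, -2.42 and -3.00 for C1qa, C1qb and C1qc. It was -2.93 for Cd53, -2.40 for Lcp1 and -2.31 for Itgb2. Among the surface receptors it was -2.55 for Adgre1, -2.01 for Cd14, -2.59 for Mrc1, -2.94 for Clec4n, -2.53 for Cd84 and -2.84 for Ms4a7, and in the phagosome -2.66 for Lyz2 and -2.23 for Mpeg1. The call of Spi1 (adjusted p = 0.0492) was lost with DESeq2 and RLE size factors and without most single libraries.

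Laptm5 differed between the days in nx2, with a GFP effect larger at day 14 than at day 12 by 0.94. At day 12 its GFP effect was 0.53 in nx2 and -0.74 in tx2, and every line of nx2 was higher and every line of tx2 lower in GFP+ cells. That difference between the crosses was not tested, because they lie in separate tables.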

How the results depend on the processing

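No called member reversed its direction under any alternative run. For the members called in a comparison, and Cx3cr1, Pf4 and Cybb between knockout and wild-type iPSC, 2043 values were computed under alternatives. Of these, 1873 kept their direction and side of the threshold, 167 kept the direction and lost the call, and 3, all of Cx3cr1, gained it. Calls that other members gained under an alternative enter only the counts that follow. With the line as a replicate block the nx2 day 12 GFP comparison gave 4 calls against 2 and the tx2 difference between days 19 against 17. The knockout comparison, blocked by clone numbers that are only names, gave 1 against 0. No called member of any comparison was lost with the block. With DESeq2 the knockout comparison gave 1 call and the nx2 difference between days 2 against 1. With only the compared groups in the fit, which tested fewer members in these comparisons, the calls were 8 against 14 for nx2 iPSC against day 14 GFP+ cells, 4 against 8 for wild-type iPSC against tx2 day 12 GFP+ cells, 1 against 0 for the knockout and 2 against 1 for the nx2 difference between days. In the same setting they were 21 against 26 for tx2 day 10 GFP, 9 against 6 for tx2 day 12 GFP and 13 against 17 for the tx2 difference between days. Without libraries over 8% mitochondrial counts the wild-type comparison gave 5 calls. On library totals the summed level of wild-type iPSC was 67.8 against 74.7 CPM, and without a low-count filter the tx2 difference between days gave 13 calls against 17.

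Leaving out 1 library at a time gave 28 to 29 calls for day 10 against fibroblasts (28 with all libraries), 5 to 7 for day 14 GFP- against day 10 (6), 2 to 3 for nx2 day 12 GFP (2) and 5 to 7 for nx2 day 14 GFP (7). It gave 7 to 14 for nx2 iPSC against day 14 GFP+ (14), 23 to 26 against fibroblasts (25), 2 to 4 for tx2 day 12 against day 8 (4), 25 to 27 for tx2 day 10 GFP (26) and 3 to 6 for tx2 day 12 GFP (6). It gave 4 to 6 for wild-type iPSC against tx2 day 12 GFP+ (8), 0 to 1 for the knockout (0), 10 to 22 for the tx2 difference between days (17) and 1 to 1 for that of nx2 (1). The cause of these changes was not tested. Members at a few counts per library, among them C1q, Tyrobp, Ptprc and Itgam in nx2 cells, are limited by depth.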
